A study of Mus musculus with 9 samples.

Results

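Enteric neuron and glia genes were followed in RNA-seq data of mouse jejunum taken on day 3 after total abdominal irradiation (TAI). The 8 genes were chosen by name and were found by Ensembl identifier among the 31685 genes of the table. They are Elavl4 (ENSMUSG00000028546), Uchl1 (ENSMUSG00000029223), Tubb3 (ENSMUSG00000062380), Nos1 (ENSMUSG00000029361), Vip (ENSMUSG00000019772), S100b (ENSMUSG00000033208), Gfap (ENSMUSG00000020932) and Sox10 (ENSMUSG00000033006). The 9 mice were wild-type C57BL/6J, described in the study's methods as adult males, with 3 mice in each group. Control mice were untreated. TAI mice received a single X-ray dose of 12 Gy to the abdomen, with the rest of the body behind lead, and PBS afterwards according to the series design. TAI/IVIg mice received the same 12 Gy and 500 mg/kg of intravenous immunoglobulin (IVIg), a human IgG preparation, within an hour of irradiation, and the injection was repeated every 3 days until tissue was taken. All 9 libraries carry the same batch label. Expression was deposited as FPKM, a level scaled to transcript length and sequencing depth. The totals recovered from these values ran from 16022350 to 17988708 reads.

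The enteric nervous system is a network of neurons and glia in the gut wall. Its ganglia lie between the muscle layers (myenteric plexus) and beneath the mucosa (submucosal plexus), and nerve fibres and glia extend into the villi. Inhibitory motor neurons relax the muscle with nitric oxide and vasoactive intestinal peptide (VIP), and secretomotor neurons of the submucosal plexus use VIP to drive secretion of fluid. Enteric glia express S100B and SOX10 and raise GFAP when they become reactive. The labels call the samples jejunal epithelial tissue, yet genes of the muscle wall were present in every mouse. The summed FPKM of 10 smooth muscle genes ran from 572 to 716 in control mice, from 606 to 870 in TAI mice and from 139 to 619 in TAI/IVIg mice, and Acta2, Actg2 and Myh11 were the most abundant of them. The levels of muscle genes thus differed between mice. In bulk tissue, fewer cells of a type and less RNA per cell cannot be told apart.

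The promoters of Gfap and Vip are shown because these genes gave the clearest differences between groups. Each runs from 250 bases before to 50 bases after the RefSeq start on GRCm38.p6, read 5′ to 3′ on the strand of the gene. Capitals mark matches to 4 short motifs searched on both strands. These were TGACG, the half-site of the cAMP response element, TTCNNNGAA, the palindrome bound by STAT factors, ACAAAG, the core bound by SOX factors, and TATAAA, the TATA box. No search motif overlapped another in these windows. The Gfap window is chr11:102897151-102897450 on the minus strand, and the Vip window is chr10:5638968-5639267 on the plus strand.
Gfap: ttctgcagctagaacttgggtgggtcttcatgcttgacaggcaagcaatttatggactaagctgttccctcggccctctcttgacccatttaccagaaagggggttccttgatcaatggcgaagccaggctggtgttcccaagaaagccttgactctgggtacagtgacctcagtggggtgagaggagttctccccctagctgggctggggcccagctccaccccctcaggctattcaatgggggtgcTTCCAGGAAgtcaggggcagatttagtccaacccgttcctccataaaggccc
Vip: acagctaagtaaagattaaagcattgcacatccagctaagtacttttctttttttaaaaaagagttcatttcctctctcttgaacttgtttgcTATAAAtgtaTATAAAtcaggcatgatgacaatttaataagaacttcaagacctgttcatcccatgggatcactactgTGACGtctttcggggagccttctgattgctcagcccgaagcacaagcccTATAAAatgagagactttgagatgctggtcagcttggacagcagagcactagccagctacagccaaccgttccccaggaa
The Gfap promoter held 1 match to TTCNNNGAA, which begins at position -2 relative to the start, and 8.47% of 27025 promoters of the same length held this motif. The Vip promoter held TGACG at position -79, a motif found in 21.02% of promoters. It also held TATAAA at positions -157, -147 and -30, and 14.2% of promoters held that motif. ACAAAG was not found in either window and occurred in 18.7% of all promoters. A match is a description of the letters and not evidence of binding.

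The structural and cytoplasmic markers of neurons came out highest in the TAI mice on average, with groups that overlapped. Elavl4 encodes HuD, a neuronal RNA-binding protein, at chr4:110203722-110351909 (GRCm38, as for the genes that follow). Its FPKM was 1.08, 0.693 and 0.804 in control mice 1, 2 and 3, 1.39, 0.958 and 1.63 in TAI mice, and 1.53, 0.808 and 0.354 in TAI/IVIg mice. TAI 3 was the highest and TAI/IVIg 3 the lowest of the 9 mice, and each group overlapped both others. The means were 0.859 ± 0.199, 1.32 ± 0.340 and 0.897 ± 0.592 (SD, n = 3) in the same order of groups.

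Uchl1 encodes a ubiquitin hydrolase abundant in neurons (PGP9.5) and lies at chr5:66676091-66687234. Its FPKM was 5.25, 4.30 and 5.24 in control mice, 6.62, 4.52 and 8.80 in TAI mice, and 6.24, 4.00 and 1.06 in TAI/IVIg mice. The level in TAI/IVIg 3 rested on 29 reads, against 111 to 262 reads in the other mice. An antisense gene, Uchl1os, shares 295 exon bases (18.1%) with Uchl1, and without strand information the reads of the pair cannot be told apart there. Tubb3, the neuronal beta-tubulin gene at chr8:123411424-123422015, followed the same order. Its FPKM was 3.39, 2.15 and 2.47 in control mice, 3.87, 2.99 and 4.93 in TAI mice, and 4.17, 2.17 and 0.862 in TAI/IVIg mice. For both genes TAI 3 was the highest mouse and TAI/IVIg 3 the lowest, and the spread within the TAI/IVIg group covered the control and part of the TAI values.

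Of the genes of inhibitory and secretomotor signalling, Vip separated the TAI mice from both other groups. Vip, which encodes the peptide VIP and lies at chr10:5639218-5647617, had an FPKM of 4.26, 5.44 and 4.24 in control mice, 7.75, 7.74 and 7.81 in TAI mice, and 4.36, 2.51 and 0.438 in TAI/IVIg mice. Every TAI mouse was above every control mouse and above every TAI/IVIg mouse. The means were 4.65 ± 0.684, 7.77 ± 0.0379 and 2.44 ± 1.96 (SD, n = 3). The reads behind Vip fell from 429 to 485 in TAI mice to 267, 145 and 25 in TAI/IVIg mice 1, 2 and 3. Nos1, the neuronal nitric oxide synthase gene at chr5:117781032-117958840, was low throughout. Its FPKM was 0.697, 0.472 and 0.658 in control mice, 0.973, 0.776 and 1.03 in TAI mice, and 0.843, 0.396 and 0.102 in TAI/IVIg mice. The 3 TAI mice were above the 3 control mice by a narrow margin, and TAI/IVIg 1 lay within the TAI range. An antisense gene, Gm26995, shares 268 exon bases (2.40%) with Nos1.

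Of the 3 glial genes among the 8, Gfap gave the largest ratio between TAI and control. Gfap encodes an intermediate filament protein of glia and lies at chr11:102887336-102900912. Its FPKM was 0.491, 0.443 and 0.534 in control mice, 2.37, 1.72 and 2.01 in TAI mice, and 2.58, 0.781 and 0.481 in TAI/IVIg mice. The TAI mean was 4.15 times the control mean, with no overlap between these groups. The TAI/IVIg mice were divided, since TAI/IVIg 1 was the highest of all 9 mice while TAI/IVIg 3 lay within the control range. The reads ran from 33 to 39 in control mice and from 118 to 171 in TAI mice.

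S100b, a calcium-binding protein gene at chr10:76253853-76261159, and Sox10, a transcription factor gene of the neural crest lineage at chr15:79154908-79165240, were near the lower end of what the depth could resolve. S100b had an FPKM of 0.775, 0.496 and 0.584 in control mice, 0.787, 0.786 and 1.33 in TAI mice, and 0.899, 0.912 and 0.362 in TAI/IVIg mice. Its lowest TAI value exceeded the highest control value only through library size, because these mice had 19 and 20 reads. Sox10 had an FPKM of 0.566, 0.427 and 0.284 in control mice, 0.670, 0.664 and 0.790 in TAI mice, and 0.656, 0.367 and 0.176 in TAI/IVIg mice. The TAI values of Sox10 were above those of both other groups, on 33 to 44 reads in TAI mice, 15 to 30 in control mice and 9 to 36 in TAI/IVIg mice. TAI 1 and TAI 2 exceeded TAI/IVIg 1 only through library size, with 35 and 33 reads against 36.

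**Figure D1:**
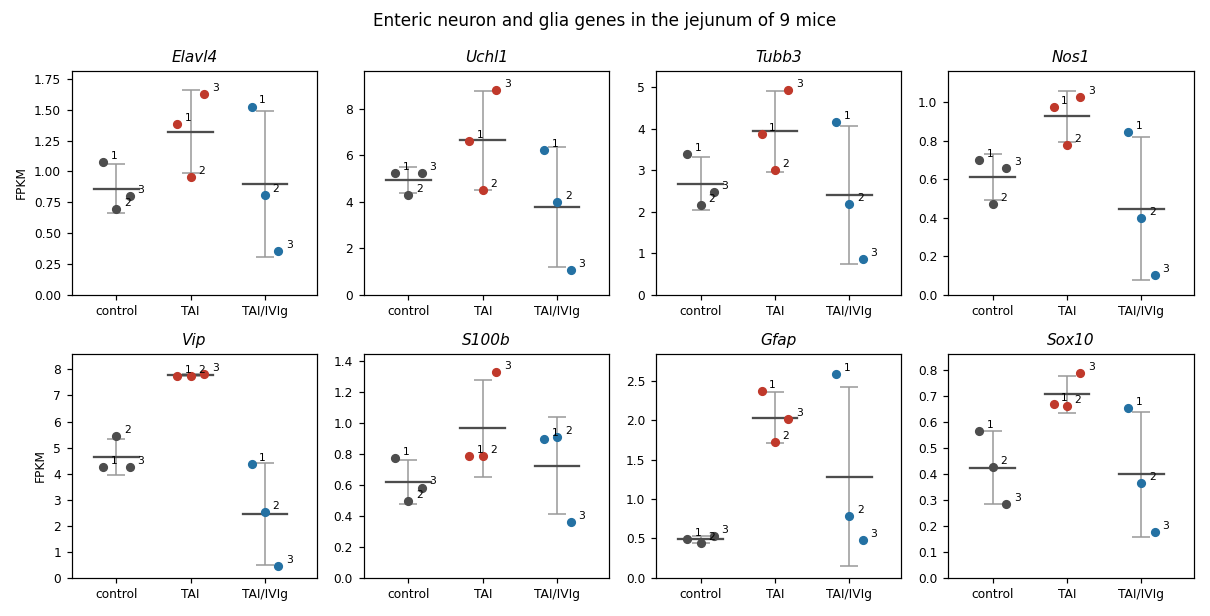
FPKM of the 8 genes in each mouse, with mouse numbers beside the points, the group mean as a horizontal line and the SD as error bars (n = 3). The 3 TAI values of Vip lie close together at 7.74 to 7.81, the 3 control values of Gfap at 0.443 to 0.534, and TAI/IVIg 3 is the lowest mouse for every gene except Gfap.

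The same mice stood out across the genes. TAI/IVIg 3 was the lowest of 9 mice for 7 of 8 genes, with control 2 the lowest for Gfap, and TAI 3 was the highest for 7 of 8, with TAI/IVIg 1 the highest for Gfap. Within the TAI/IVIg group, TAI/IVIg 1 was the highest for 7 of 8 genes, all but S100b, and TAI/IVIg 3 was the lowest for all 8. The TAI mean was 17.7 times the value of TAI/IVIg 3 for Vip, 9.11 times for Nos1, 6.27 times for Uchl1 and 2.68 times for S100b. By comparison, 36.5% of the 19013 genes with at least 30 reads over the 9 mice were lowest in TAI/IVIg 3. The share of all genes highest in TAI 3 was not computed, nor were the shares for the order within the TAI/IVIg group. Those counts therefore cannot be set apart from the rest of the genes.

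The comparison of TAI with control asked which genes differed on day 3 after irradiation. Gfap was higher in TAI mice, and it was the only gene of the 8 to pass the threshold. The test was limma on log2(FPKM + 1) across the 13056 genes that reached an FPKM of 1 in 3 or more mice, with Benjamini-Hochberg adjustment, and fold changes on this scale understate those of genes of low FPKM. Elavl4, Uchl1, Tubb3, Vip and Gfap were tested, and S100b, Nos1 and Sox10 fell below the filter. Gfap reached the filter only through the TAI mice and TAI/IVIg 1. The log2 fold change of Gfap was 1.02 (SE 0.29, adjusted p = 0.0255 by limma). Of the 5 genes tested, 1 was called higher, against 8.81% of all genes tested, and 0 were called lower, against 26.1%. At an unadjusted p under 0.05, 0 of the 5 were lower, against 4475 of the 13056 genes. P-values measure the spread between these mice, and the labels do not state further how the mice were replicated.

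The other genes tested gave positive log2 fold changes that did not pass the threshold. Vip was at 0.64 (SE 0.39, adjusted p = 0.231 by limma), Tubb3 at 0.42 (SE 0.34, adjusted p = 0.352), Uchl1 at 0.33 (SE 0.41, adjusted p = 0.552) and Elavl4 at 0.32 (SE 0.23, adjusted p = 0.311). Without TAI/IVIg 3, whose values widen the spread shared by all groups, the same change of Vip passed the threshold (adjusted p = 0.0286 by limma), and it did so in a fit of the 6 control and TAI mice (adjusted p = 0.0110). Vip was not called without any 1 of the 6 control and TAI mice (adjusted p of 0.255 to 0.380 by limma). Equal library medians (0.134 by limma) and voom of recovered reads (0.251 by limma voom) gave no call either. Over its 21 alternatives the adjusted p ran from 0.0110 to 0.598. A limma voom fit of the recovered reads reached the 3 genes below the filter, since it took all 19013 genes with at least 30 reads. It gave Gfap a log2 fold change of 2.03 (SE 0.52, adjusted p = 0.0191). Sox10 was at 0.77 (SE 0.44, adjusted p = 0.233), Nos1 at 0.62 (SE 0.52, adjusted p = 0.409) and S100b at 0.62 (SE 0.44, adjusted p = 0.330).

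The call for Gfap depended on single mice, on the filter and on the scaling. The adjusted p of limma rose to 0.0506 without control 1, 0.0700 without control 2, 0.0617 without control 3, 0.0900 without TAI 1 and 0.0625 without TAI 3, at log2 fold changes of 0.94 to 1.04. Over all 21 alternatives for Gfap the adjusted p ran from 0.00207 to 0.0900 and the log2 fold change from 0.94 to 2.33, and the call held in 14 of them.

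All 8 genes had a higher mean FPKM in TAI than in control mice, by ratios of 1.35 for Uchl1 to 4.15 for Gfap. The median log2 fold change of all 13056 genes was -0.23 in this comparison, -0.39 in TAI/IVIg against control and -0.13 in TAI/IVIg against TAI. Setting the library medians equal brought these medians to 0.03, 0.05 and 0.06, and on that scale every tested gene of the 8 stood higher in TAI than on the deposited scale. All 3 TAI mice exceeded all 3 control mice for S100b, Gfap, Sox10, Nos1 and Vip, or 5 of 8 genes, against 15.0% of the 19013 genes with enough reads. For S100b this separation rested on library size. None of the 8 had all TAI mice below all control mice, against 30.7%.

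In TAI/IVIg against TAI, which asked what IVIg changed after irradiation, none of the 8 genes passed the adjusted threshold. The 5 genes tested were all lower in TAI/IVIg mice on average, and Vip showed the largest difference. Its log2 fold change was -1.55 (SE 0.39, unadjusted p = 0.00351, adjusted p = 0.353 by limma). Vip was the only tested gene of the 8 at an unadjusted p under 0.05, against 11.2% of all genes lower and 1.64% higher at that level. No gene of the 13056 passed the adjusted threshold in either direction, so the background was 0% both higher and lower. Uchl1 was at -0.82 (SE 0.41, adjusted p = 0.415 by limma), Tubb3 at -0.64 (SE 0.34, adjusted p = 0.430), Gfap at -0.51 (SE 0.29, adjusted p = 0.453) and Elavl4 at -0.33 (SE 0.23, adjusted p = 0.531).

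In the voom fit of recovered reads, Vip was at -2.18 (SE 0.56, adjusted p = 0.290 by limma voom) and Nos1 at -1.48 (SE 0.56, adjusted p = 0.302), and both had an unadjusted p under 0.05. Sox10 was at -0.98 (SE 0.45, adjusted p = 0.335) and S100b at -0.48 (SE 0.43, adjusted p = 0.589). All TAI/IVIg mice lay below all TAI mice for Sox10 and Vip, or 2 of 8 genes, against 18.1% of genes. For Sox10 this separation rested on library size. None lay above, against 2.45%. Without TAI/IVIg 3, the log2 fold change of Vip was -1.02 (SE 0.20, adjusted p = 0.977 by limma), and Uchl1, Tubb3, Gfap and Elavl4 lay between -0.31 and -0.11. The direction of these differences was the same without that mouse, and their size was smaller.

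TAI/IVIg against control compared treated irradiated mice with untreated mice, and the control mice are shared with the TAI comparison. Vip was lower in TAI/IVIg mice at a log2 fold change of -0.91 (SE 0.39, unadjusted p = 0.0473, adjusted p = 0.0876 by limma) and Gfap was at 0.51 (SE 0.29, adjusted p = 0.176). Uchl1 was at -0.49 (SE 0.41), Tubb3 at -0.22 (SE 0.34) and Elavl4 at -0.01 (SE 0.23), all with adjusted p above that of Gfap. Of the 5 genes tested, 0 were called in either direction, against 9.06% of all genes higher and 37.4% lower. None of the 8 separated the 3 TAI/IVIg mice from the 3 control mice, against 9.45% of genes higher and 38.8% lower. The voom fit put Nos1 at -0.87 (SE 0.58), Sox10 at -0.21 (SE 0.48) and S100b at 0.14 (SE 0.45). Without TAI/IVIg 1, Vip passed the threshold at a log2 fold change of -1.32 (adjusted p = 0.0167 by limma), and without TAI/IVIg 3 it was at -0.37 (adjusted p = 0.181). With 3 mice a group, an exact permutation test of a single gene cannot go below p = 0.1.

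**Figure D2:**
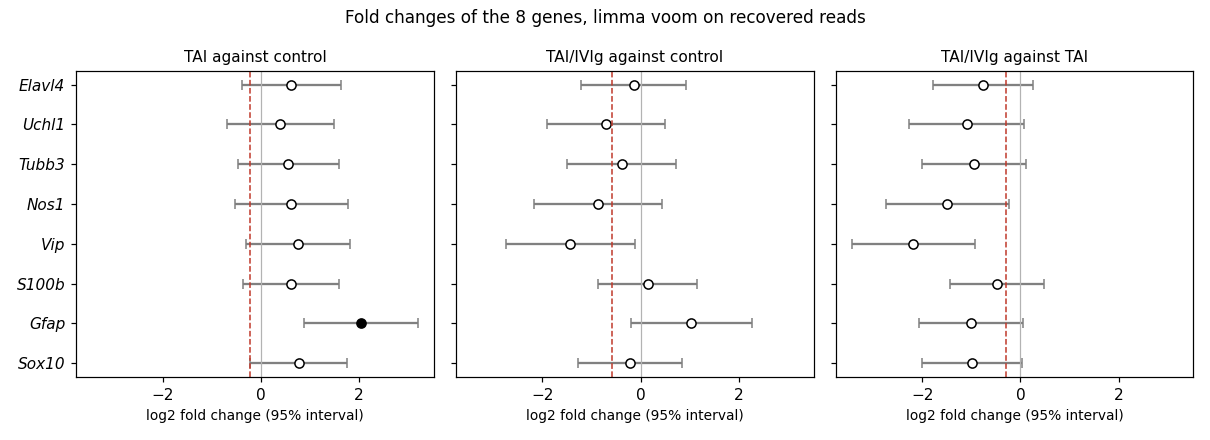
Log2 fold changes of the 8 genes in the 3 comparisons from limma voom on recovered reads, with 95% intervals, filled where the adjusted p is under 0.05, and the median of all 19013 genes as a dashed line. Gfap in TAI against control, at 2.03, is the only filled point, and in TAI/IVIg against TAI the intervals of Vip and Nos1 lie below 0.

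The fall in TAI/IVIg 3 was shared by genes of smooth muscle, fibroblasts and other cells outside the epithelium. The 10 smooth muscle genes were all lowest in that mouse, as were all 7 fibroblast genes, 5 of 6 genes of interstitial cells of Cajal, the pacemaker cells of the gut, and 19 of 20 pan-neuronal genes. The pan-neuronal list includes Uchl1 and so overlaps the 8 genes. Of 6 endothelial genes 5 were lowest there, of 16 glial genes 11, of 6 haematopoietic genes 3 and of 5 adipocyte genes 3. Of 8 epithelial genes, 1 was lowest there. The share over the 19013 genes with at least 30 reads was 36.5%. The smooth muscle genes took 0.0597% of the reads of TAI/IVIg 3 and 0.142% of those of TAI/IVIg 2, against 0.218% to 0.346% in the other mice. The summed FPKM of 8 epithelial genes in TAI/IVIg 3 was 7198, within the range of 6028 to 8509 over the 9 mice. TAI 3 had the highest share of smooth muscle reads, 0.346%, and the highest summed FPKM of 5 adipocyte genes, 225 against 52.6 to 93.9 in the other mice. The part of tissue composition in the levels of the 8 genes was not tested.

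**Figure D3:**
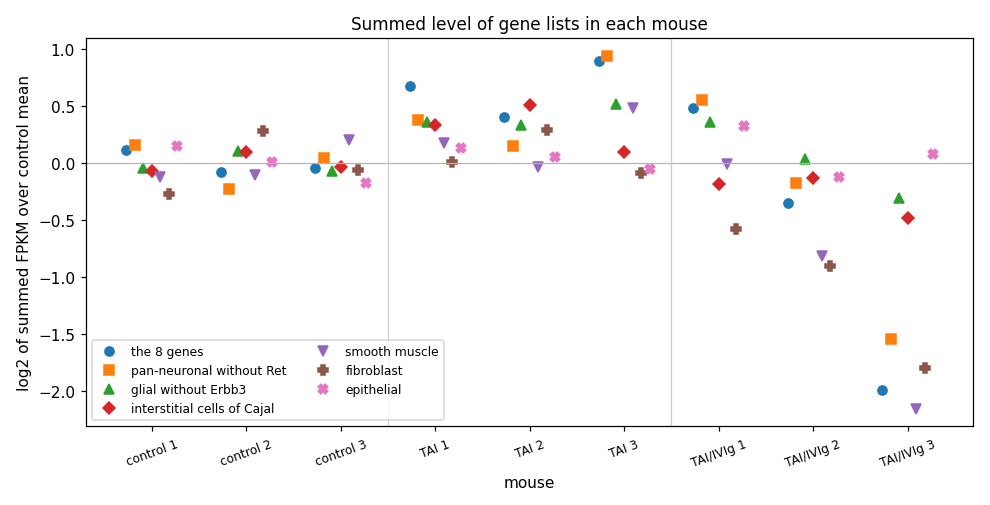
Log2 of the summed FPKM of each gene list in each mouse over the mean of the control mice. In TAI/IVIg 3 the 8 genes, the pan-neuronal list without Ret, the smooth muscle list and the fibroblast list lie far below 0, while the epithelial list stays near 0. The glial list is drawn without Erbb3. Ret and Erbb3 were not low in that mouse. With Erbb3 the summed glial FPKM of TAI/IVIg 3 was 115, against a control mean of 40.2. Without Erbb3 it was 15.5 against 19.1. With Ret the pan-neuronal sum was 15.6 against 28.6. The pan-neuronal and glial lists share genes with the 8, such as Uchl1 and Gfap.

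The 8 genes were then expressed per 10000 reads of the 10 smooth muscle genes, a scale chosen after the values were seen. Together they gave 210, 194 and 162 reads in control mice, 284, 269 and 241 in TAI mice, and 273, 238 and 184 in TAI/IVIg mice. The sum of TAI/IVIg 3 lay within the control range, but its single genes lay on both sides of that range. TAI/IVIg 3 was below every control mouse for Vip, Nos1 and Uchl1 and above every control mouse for S100b, Gfap, Sox10 and Elavl4. S100b gave 5.03, 3.37 and 3.24 reads in control mice, 4.37, 4.93 and 5.71 in TAI mice, and 5.64, 9.57 and 8.99 in TAI/IVIg mice. Gfap gave 9.06, 8.55 and 8.44 reads in control mice, 37.3, 30.6 and 24.6 in TAI mice, and 46.1, 23.3 and 34.0 in TAI/IVIg mice. All 6 irradiated mice were above all control mice for Gfap, including TAI/IVIg 3, which lay within the control range by FPKM. The divisor was 10011 smooth muscle reads in TAI/IVIg 3, against 39725, 38602 and 46229 in control mice. A low divisor raises every gene of that mouse on this scale. The share of all genes with the same separation was not computed.

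Vip gave 63.4, 84.7 and 54.1 reads per 10000 smooth muscle reads in control mice, 98.7, 111.3 and 76.9 in TAI mice, and 62.8, 60.3 and 24.97 in TAI/IVIg mice. The TAI/IVIg mice remained below the TAI mice for Vip, and TAI 3 fell into the control range. Nos1 gave 34.0, 24.1 and 27.5 reads in control mice, 40.6, 36.6 and 33.1 in TAI mice, and 39.7, 31.2 and 19.0 in TAI/IVIg mice, with overlap between all groups. Elavl4 went the other way, with 27.9, 21.8 and 25.4 reads in TAI mice and 34.8, 30.8 and 32.0 in TAI/IVIg mice.

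With the smooth muscle reads as library size, limma voom gave Gfap a log2 fold change of 1.79 (SE 0.59, adjusted p = 0.0546) in TAI against control and 1.94 (SE 0.61, adjusted p = 0.0277) in TAI/IVIg against control. In TAI/IVIg against TAI, Gfap was then at 0.14 (SE 0.57) and Elavl4, Uchl1 and Tubb3 at 0.39, 0.08 and 0.21, while Vip stayed at -0.99 (SE 0.57, adjusted p = 0.193). The direction of these 4 genes against TAI thus depended on the scale, and that of Vip did not. The median log2 fold change of all genes in this fit was 0.94. All of these genes lay below it.

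**Figure D4:**
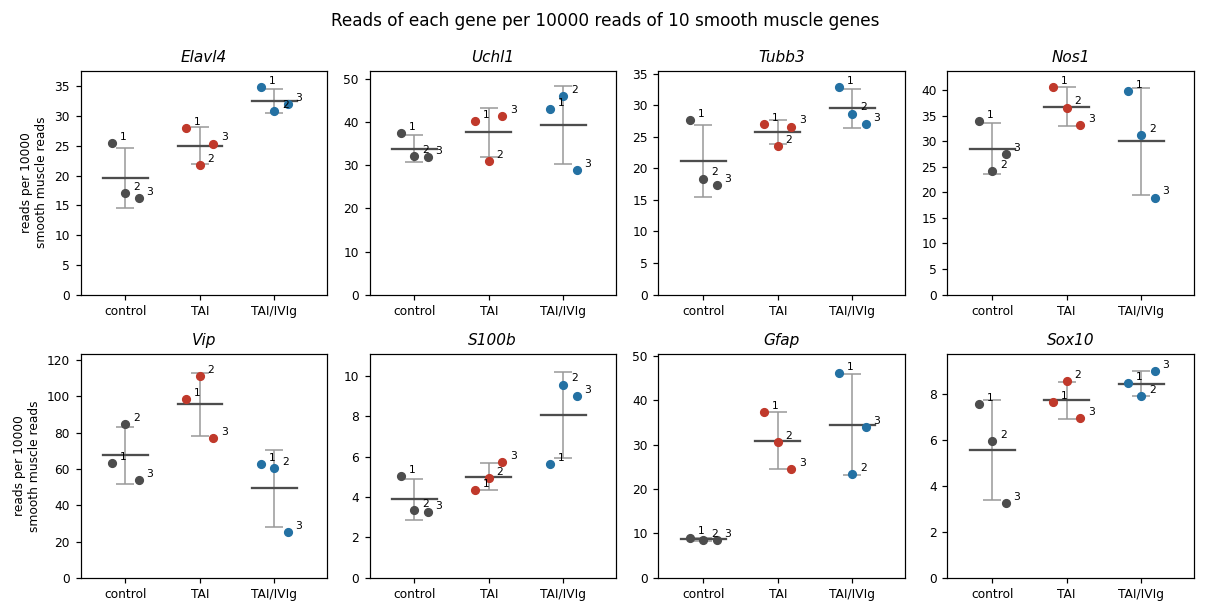
Reads of each gene per 10000 reads of 10 smooth muscle genes in each mouse, with the mean as a line and the SD as error bars (n = 3). For Gfap, the irradiated mice of both groups lie at 23.3 to 46.1, above the control mice at 8.44 to 9.06, and for Vip the TAI/IVIg mice lie below the TAI mice.

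Wider gene lists of the same cell types were examined by counts in the limma test. The lists include genes of the 8, such as Uchl1 (pan-neuronal), Vip (inhibitory and secretomotor) and Gfap (glial). Their counts and medians are therefore not independent of the 8 genes. Of 20 pan-neuronal genes, 14 were tested, and their median log2 fold change was 0.33 in TAI against control, where that of all genes was -0.23. Only Ret was called, and it was higher, against 8.81% of all genes tested higher and 26.1% lower. Ret encodes the receptor for GDNF family ligands and is carried by enteric neurons and their progenitors. Its FPKM was 1.12, 1.06 and 1.32 in control mice, 7.92, 5.00 and 7.99 in TAI mice, and 5.96, 4.45 and 6.17 in TAI/IVIg mice. Both irradiated groups lay above the control mice. TAI/IVIg 3 was not low for Ret, whereas 19 of the 20 pan-neuronal genes were lowest in that mouse. Which cells carried Ret in this tissue was not tested. The log2 fold change of Ret was 1.85 (SE 0.19, adjusted p = 0.000552 by limma) in TAI against control, 1.58 (SE 0.19, adjusted p = 0.000615) in TAI/IVIg against control and -0.27 (SE 0.19, adjusted p = 0.525) in TAI/IVIg against TAI. In the last comparison the list median was -0.47, against -1.05 for the smooth muscle list, and with smooth muscle reads as library size it was 0.27, with 12 of 14 genes positive and a median of all genes of 0.94. On the deposited scale 0 genes were called, and the smallest p-values belonged to Map1b (-0.58, SE 0.22) and Tubb2b (-0.61, SE 0.23), a microtubule-associated protein and a tubulin, both with an adjusted p of 0.363 or more.

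Among 8 genes of inhibitory and secretomotor neurons, 5 were tested and Npy was called higher in TAI against control, against 8.81% of all genes. Npy encodes neuropeptide Y. Its FPKM was 1.12, 1.10 and 1.02 in control mice, 2.27, 3.80 and 2.23 in TAI mice, and 1.18, 0.936 and 0.105 in TAI/IVIg mice. Npy thus shared the pattern of Vip, with every TAI mouse above all others. Its log2 fold change was 0.83 (SE 0.26, adjusted p = 0.0378 by limma) in TAI against control and -1.15 (SE 0.26, adjusted p = 0.353) in TAI/IVIg against TAI. Against control, Npy was not called in the voom fit of recovered reads (adjusted p = 0.132 by limma voom) or in limma without any 1 of the 6 control and TAI mice (adjusted p of 0.0571 to 0.121). The list median was 0.58 in the former and -0.71 in the latter comparison. Of 14 genes of excitatory and sensory neurons, 4 were tested and 0 were called in TAI against control or in TAI/IVIg against TAI, with list medians of -0.10 and -0.43. Calb2, the calretinin gene, gave 0.41 (SE 0.31) and -0.75 (SE 0.31) in these comparisons, Calcb, which encodes a calcitonin gene-related peptide, gave -0.29 (SE 0.29) against control, and Tac1, the substance P gene, gave -0.42 (SE 0.25) against TAI.

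Of 18 glial genes, 9 were tested, and in TAI against control Erbb3, Scn7a and Gfap were called higher and Fabp7 lower, with a list median of 0.37. The shares of all genes were 8.81% higher and 26.1% lower. Erbb3, a neuregulin receptor gene of the Schwann and glial lineage that epithelial cells also express, had an FPKM of 22.9, 21.3 and 19.0 in control mice, 95.8, 94.2 and 82.9 in TAI mice, and 116.9, 90.1 and 99.98 in TAI/IVIg mice. Its log2 fold change was 2.06 (SE 0.14, adjusted p = 0.000131 by limma). Erbb3 made up most of the summed level of this list, and it was not low in TAI/IVIg 3. Scn7a, a sodium channel gene of glia, had an FPKM of 0.996, 1.06 and 0.811 in control mice, 2.89, 3.105 and 4.09 in TAI mice, and 2.82, 1.88 and 0.772 in TAI/IVIg mice, and its log2 fold change was 1.15 (SE 0.26, adjusted p = 0.0105). Scn7a was not called with smooth muscle reads as library size (adjusted p = 0.0720). Fabp7, a brain-type fatty acid binding protein gene, had a mean FPKM of 1.13 ± 0.129 in control and 0.478 ± 0.0432 in TAI mice (SD, n = 3), at a log2 fold change of -0.53 (SE 0.17, adjusted p = 0.0379). Fabp7 reached the filter only through the 3 control mice. It was not called in the voom fit (adjusted p = 0.0709), with library medians set equal (adjusted p = 0.124) or without any 1 of the 6 control and TAI mice (adjusted p of 0.0503 to 0.109). In TAI/IVIg against TAI, 0 of the 9 were called and the list median was -0.51, against -0.96 for the fibroblast and -1.05 for the smooth muscle list. With smooth muscle reads as library size the glial median was 0.10, with 7 of 9 genes positive and a median of all genes of 0.94. On the deposited scale Gpm6b, a membrane proteolipid gene, had the smallest p-value (-0.70, SE 0.21).

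Among 17 genes of neurotrophic signals, 11 were tested and Ret, held by this list as well, was the only gene called in TAI against control, with a list median of 0.13. In TAI/IVIg against TAI, 0 were called, the median was -0.43, and Csf1, the growth factor gene of macrophages, was at -0.81 (SE 0.32) and Gfra1, a co-receptor gene of RET, at -0.44 (SE 0.24). Of 18 genes of receptors and effectors of enteric transmitters, 9 were tested and 2 were called, both lower in TAI, against 26.1% of all genes lower. Pde5a, a phosphodiesterase gene that ends cGMP signalling, had a mean FPKM of 20.3 ± 1.53 in control and 11.1 ± 1.38 in TAI mice (SD, n = 3; log2 fold change -0.82, SE 0.13, adjusted p = 0.00252 by limma). P2ry1, a purine receptor gene, had 7.95 ± 1.40 and 5.05 ± 0.0786 (SD, n = 3; log2 fold change -0.55, SE 0.17, adjusted p = 0.0356). Neither was called with library medians set equal (adjusted p = 0.0682 for Pde5a and 0.359 for P2ry1 by limma) or with smooth muscle reads as library size (0.215 and 0.353), and P2ry1 was not called without control 1 or 2 or any 1 of the TAI mice (0.0569 to 0.119). Gucy1a1, a subunit gene of the nitric oxide receptor, was at -0.75 (SE 0.21) and Chrm2, a muscarinic receptor gene, at -0.88 (SE 0.28) in TAI/IVIg against TAI, where 0 of the 9 were called. Of 6 genes of interstitial cells of Cajal, 4 were tested, and Ano1, their chloride channel gene, was called higher in TAI against control (log2 fold change 0.80, SE 0.25, adjusted p = 0.0382), against 8.81% of all genes. The mean FPKM of Ano1 was 1.66 ± 0.218, 3.61 ± 0.229 and 1.47 ± 0.903 (SD, n = 3) in control, TAI and TAI/IVIg mice, and 0 genes of that list were called in TAI/IVIg against TAI, with Ano1 at -0.97 (SE 0.25) and Gja1, a connexin gene, at -0.78 (SE 0.24). Against control, Ano1 in TAI mice was not called in the voom fit (adjusted p = 0.0570 by limma voom), with smooth muscle reads as library size (adjusted p = 0.328) or in limma without any 1 of the 6 control and TAI mice (adjusted p of 0.0698 to 0.103).

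**Figure D5:**
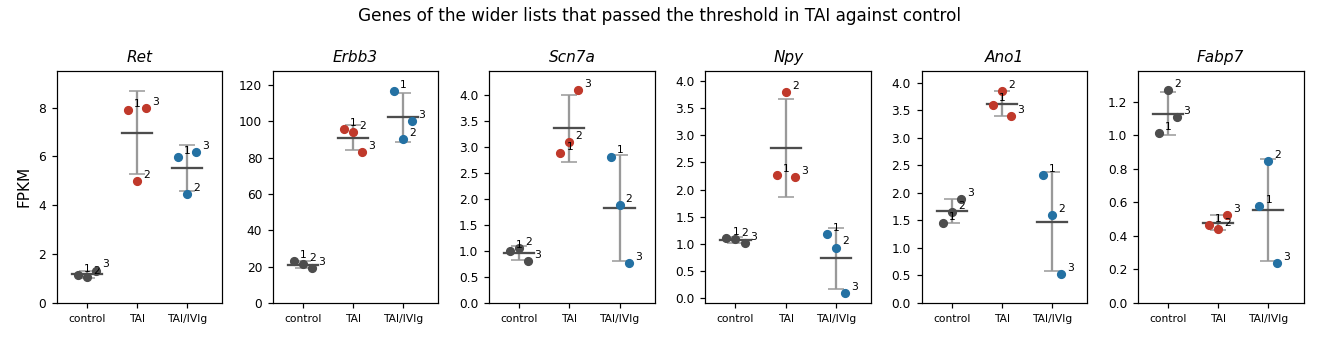
FPKM in each mouse of 6 genes of the wider lists that passed the adjusted threshold in TAI against control, with the group mean as a line and the SD as error bars (n = 3). Ret and Erbb3 stay high in all TAI/IVIg mice, while Scn7a, Npy and Ano1 reach 0.772, 0.105 and 0.519 in TAI/IVIg 3.

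In TAI/IVIg against control, 10 genes of these lists other than the 8 were called out of 50 tested, 5 higher and 5 lower, against 9.06% of all genes higher and 37.4% lower. Ret, Erbb3, Entpd2, Edn3 and Vipr1 were higher, and L1cam, Fabp7, Pde5a and P2ry1 were among those lower. Vipr1, a receptor gene for VIP that epithelial cells express, gave a log2 fold change of 0.60 (SE 0.17, adjusted p = 0.0198 by limma), while Vip itself was at -0.91. Edn3, the endothelin ligand gene required for enteric progenitors, was at 0.75 (SE 0.23, adjusted p = 0.0241), and Entpd2, an ectonucleotidase gene of enteric glia, was at 0.47 (SE 0.13, adjusted p = 0.0182). L1cam, a cell adhesion gene of neurons and glia, was at -1.17 (SE 0.24, adjusted p = 0.00463). Without TAI/IVIg 3, 6 genes of the lists were called, and Entpd2 (adjusted p = 0.0673 by limma), Edn3 (0.0630), Vipr1 (0.0718) and Fabp7 (0.138) were not among them. Edn3 and Vipr1 were also not called without control 2 or control 3, Edn3 without TAI/IVIg 1, and Entpd2 without control 3. With library medians set equal, Fabp7 (adjusted p = 0.301), Pde5a (0.148) and P2ry1 (0.762) were not called in this comparison.

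Some of these genes are shared with cells of the epithelium. Hormone-producing enteroendocrine cells carry vesicle genes of neurons, and the summed FPKM of 14 of their genes was 157 to 191 in control, 145 to 210 in TAI and 174 to 183 in TAI/IVIg mice, led by Nts, Gip and Sct. Of the 10 tested, Pcsk1 was called higher and Cck and Chga lower in TAI against control, named here after their values were seen. The shares of all genes were 8.81% higher and 26.1% lower. The 7 tuft cell genes summed to 4.44 to 6.62, 6.76 to 7.53 and 4.75 to 7.19 in the same order, led by Avil, Trpm5 and Dclk1. Of the 14 enteroendocrine genes, 2 were lowest in TAI/IVIg 3. The 6 endothelial genes, led by Lyve1, Pecam1 and Kdr, summed to 29.3 to 37.4, 23.8 to 30.8 and 10.2 to 18.7. The sums of the haematopoietic genes ran from 28.0 to 385, those of the adipocyte genes from 52.6 to 225, and those of the exocrine pancreas genes stayed under 0.444 in every mouse. None of the listed genes was at 0 in all mice.

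The genes most like each of the 5 tested genes were found by Pearson correlation of log2(FPKM + 1) over the 9 mice, among 12419 genes of mean FPKM of at least 1. The mice share group means and differ in smooth muscle gene levels, so these values are descriptions. Elavl4 was closest to Tubb3 (r = 0.98), Prph (0.96) and Cnr1 (0.96), and Tubb3 was closest to Htr3a (0.98), Dusp26 (0.98) and Elavl4. Uchl1 was closest to Cap2 (0.99), Ndn (0.99) and Ldhb (0.99). Vip was closest to Gucy1a1 (0.99), Gjc1 (0.98) and Clmp (0.98). Gfap was closest to a different set, led by Plekhf2 (0.98) and Fbxo32 (0.98).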

How the data were processed

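RNA of jejunal tissue from 9 mice (3 control, 3 TAI, 3 TAI/IVIg) had been sequenced, and the authors deposited a single table of FPKM values with a column per mouse, all of which were used (0 columns were left out). The submitters' processing notes name FastQC, Trimmomatic, STAR, featureCounts and DESeq2 and the mm10 (GRCm38) build without versions, and the strand setting of the counting is not given in the sources used here. Reads were recovered by multiplying FPKM by union exon lengths of the GENCODE M21 annotation on GRCm38. They came out whole within 0.01 reads for 96.63% of 31685 genes, for a further 1066 with another length, and 3 genes were not resolved. Library totals ranged from 16022350 to 17988708 reads, and at this depth S100b rested on 9 to 36 reads a mouse and Gfap on 33 to 196. Symbols were matched for 31146 genes.

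Genes that reached an FPKM of 1 in 3 or more mice were tested on the log2(FPKM + 1) scale in limma (version 3.58.1, R version 4.3.3). The model held the 3 groups and all 9 mice, and variances were moderated with a trend. Benjamini-Hochberg adjustment covered all 13056 genes in each comparison. Limma voom on recovered reads (19013 genes of at least 30 reads in all) and with smooth muscle reads as library size were added after seeing the data. The steps were tested on simulated data. The 8 genes and the gene lists were chosen with earlier results of these data known. Named genes were all 8, up to 4 called genes in each direction of each neuronal, glial and related list (or the 2 of smallest p), the 3 most abundant genes of other cell type lists, and the 3 most correlated genes, and a few genes under this rule are not reported here. The genes called in TAI/IVIg against control were named after their values were seen. For mice sharing a replicate number, deviations from the group means had correlations of 0.271, 0.241 and 0.308 in control with TAI, and of -0.296 to 0.201 where a TAI/IVIg mouse was involved. Mice of different numbers were not correlated, so these values cannot show whether the numbers pair mice. The labels do not state what a shared number means. Alternatives changed the pseudocount (0.1), the filter (none, or a mean FPKM of 5), the scaling (equal medians, quantile), the mice in the fit (only the 6 compared, or each left out in turn), the variance trend, the replicate block and the test (voom).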

Additional observations from a re-analysis of the deposited data

How the results depend on the processing

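The log2 fold changes of the 8 genes kept their direction under the alternatives run, except as follows. Against control, Elavl4 in TAI/IVIg mice was at 0.24 with equal library medians, 0.31 with quantile normalization, 0.36 with median-ratio library sizes, 0.77 with smooth muscle reads as library size, 0.40 in voom of 30 reads or more without TAI/IVIg 3, 0.07 without control 1 and 0.21 without TAI/IVIg 3. Tubb3 was at 0.18, 0.25, 0.11, 0.53, 0.20 and 0.16 in the same order, the fit without control 1 left out. Uchl1 was at 0.017 with quantile normalization, 0.22 with smooth muscle reads, 0.030 in that voom fit without TAI/IVIg 3 and 0.025 without TAI/IVIg 3 in the limma fit, and Sox10 was at 0.26 in that voom fit. Against TAI, smooth muscle reads as library size put Elavl4 at 0.39, Uchl1 at 0.076, Tubb3 at 0.21 and Gfap at 0.14, where the median of all genes was 0.94. With each mouse left out in turn, TAI/IVIg against control ran from -0.24 to 0.21 for Elavl4, -0.88 to 0.025 for Uchl1 and -0.58 to 0.16 for Tubb3, each lowest without TAI/IVIg 1. The causes were not tested. The count of the 8 genes called higher in TAI, 1 as reported, was 0 with no filter, with a mean FPKM of at least 5, which left only Uchl1 to test, and with smooth muscle reads, and 2 in a fit of the 6 mice and without TAI/IVIg 3, ranging from 0 to 2 with a mouse left out. Against control, TAI/IVIg gave 0 to 1 genes called lower with a mouse left out, where the 1 was Vip without TAI/IVIg 1, and 1 higher, Gfap, with smooth muscle reads and in the voom fit of 30 reads or more without TAI/IVIg 3, against 0 otherwise. The wider lists, with 8 genes other than the 8 called in TAI against control, gave 5 with a pseudocount of 0.1, 5 with no filter, 3 with a mean FPKM of at least 5, 13 in a fit of the 6 mice, 2 with smooth muscle reads and 4 to 12 with a mouse left out. In TAI/IVIg against control, 10 genes became 6 with a mean FPKM of at least 5, 4 with smooth muscle reads and 6 to 12 with a mouse left out. With a replicate block, the 8 genes gave 1 higher in TAI and 0 in the other comparisons, with Gfap at 1.02 (adjusted p = 0.0230 by limma), the wider lists gave 9 and 11, and the block changed no call of the 8. Vip in TAI/IVIg against TAI had adjusted p-values of 0.0651 to 0.977 over 21 alternatives. S100b, with 9 to 36 reads a mouse, and Sox10, with 9 to 44, limit what their differences can show.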
